A study of Capra hircus with 9 samples.

Results

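The genes described here are the LIF family signals of mammary involution, 7 genes taken by their symbols from a table of 23499 goat genes: the cytokines LIF and OSM, their receptor chains LIFR and OSMR, the transcription factors CEBPB and CEBPD, and CLU. Of the 7, 6 were found, 3 of these (LIFR, OSMR and CEBPB) were high enough to be tested, and CLU was not analysed here. The data are RNA-seq values of mammary gland tissue from healthy goats of the Laoshan dairy breed, with 1 library from each of 9 goats of parity 3 and an average age of 4 years. They comprise 3 goats in late lactation (LL, 240 days postpartum), 3 in the dry period (DP, 300 days postpartum) and 3 in late gestation (LG, 140 days after mating). No goat carried a treatment or a modified allele, the tissue was collected at slaughter, and whether the DP goats were pregnant is not given in the sources used here. Stage and goat differ together, so the replicate error is the spread between 3 goats.

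When milk removal stops, the mammary epithelium of the mouse raises LIF, which binds LIFR together with the shared chain IL6ST (gp130) and activates STAT3 through the JAK kinases. OSM takes over later through OSMR and the same IL6ST chain, and STAT3 then turns on CEBPB and CEBPD, genes of the acute phase response such as LBP, CD14 and LRG1, lysosomal cathepsins, and its own inhibitor SOCS3. IGFBP5, which holds back the survival signal of insulin-like growth factor, is another known product of this programme. The comparison of LL, DP and LG asks how these genes stand at the end of milking, in the resting gland and shortly before kidding.

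Values are FPKM, fragments per kilobase of transcript, scaled to library size, so levels of different genes can be set side by side. FPKM carry no read count, and no counting error is attached to a value. The milk protein and other secretory genes (CSN2, LALBA, BTN1A1 and XDH) summed to 100709 to 133617 FPKM in LL, to 57.8 to 81.8 FPKM in DP and to 5443 to 7082 FPKM in LG, and FPKM of most other genes were lower in LL than in DP and LG. For the tests each library was therefore divided by a scaling factor, the median of its ratios to the mean library (0.498 to 0.605 for LL, 1.44 to 1.53 for DP and 1.20 to 1.31 for LG), and log2 fold changes were taken on log2(scaled FPKM + 1), which understates the change of low genes. Without scaling, the median of all genes lay 1.09 higher in DP than in LL, 0.93 higher in LG than in LL and 0.18 lower in LG than in DP on the log2 scale (fitted value -0.18). A gene is called when its adjusted p from limma is below 0.05 and its log2 fold change is at least 1 in size, and rose or fell is written of called genes only. By this rule 22.6% of the 14701 genes tested were called between DP and LL, 17.3% between LG and LL and 13.3% between LG and DP.

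Both cytokine genes were near the lower end of the scale at every stage. LIF (gene 102188524, chromosome 17, 1999635 to 2005933 of the deposited table, which names no genome build) was listed at 0, 0 and 0.14 FPKM in LL, at 0.19, 0.31 and 0.97 FPKM in DP and at 0.08, 0.14 and 0.03 FPKM in LG. As deposited its 3 DP values lay above all 6 other values, none of which exceeded 0.14 FPKM. After scaling the stages overlapped, with replicate 3 of LL at 0.231 and the DP libraries at 0.124, 0.215 and 0.674. OSM (gene 102188790, chromosome 17, 1980445 to 1984402) lies 15233 bases from LIF on the same strand. It was at 0.48, 0.10 and 0.18 FPKM in LL, at 0.30, 0.20 and 0.50 FPKM in DP and at 0.07 FPKM in each LG library. The LG values were below those of the 6 other libraries, and LL and DP overlapped.

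Neither cytokine reached 0.5 FPKM in 3 libraries, so both stayed out of the test. In a fit with no filter on low values, the log2 fold change of LIF was 0.30 between DP and LL (limma adjusted p = 0.131) and -0.30 between LG and DP (adjusted p = 0.165). That of OSM was -0.45 between LG and LL (adjusted p = 0.0685) and -0.24 between DP and LL (adjusted p = 0.281). None was called, and at these levels the values say little about either gene in either direction.

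**Figure D1:**
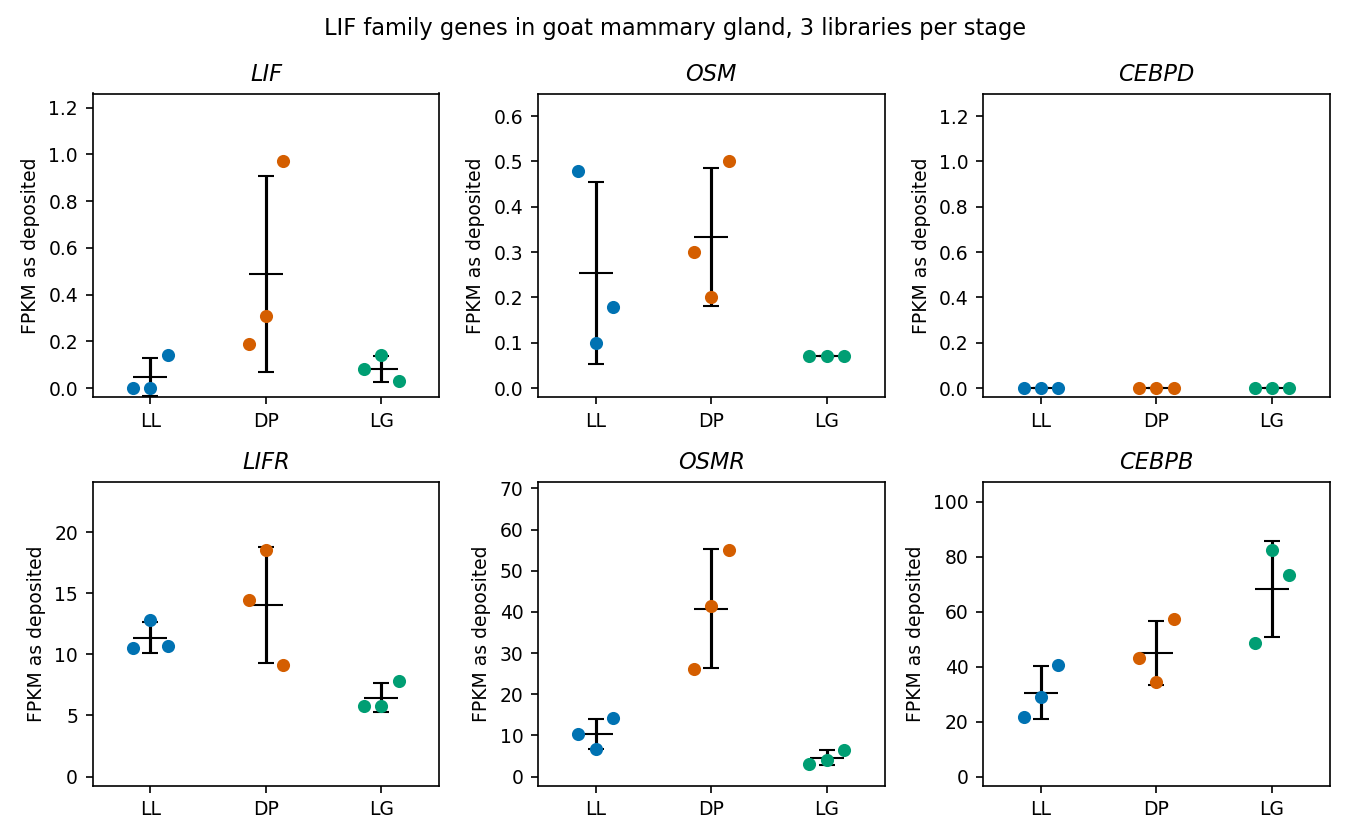
FPKM as deposited (vertical axes, each panel with its own scale) of 6 LIF family genes in late lactation (LL), the dry period (DP) and late gestation (LG). Points are the 3 libraries of a stage, horizontal lines the mean and vertical bars 1 SD. OSMR in DP lies between 26.0 and 55.0 FPKM, above every LL and LG library, while LIF and OSM stay below 1 FPKM and CEBPD is listed at 0 in all 9 libraries.

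The receptor genes were expressed at moderate levels, and they moved differently. LIFR and OSMR stand on chromosome 20, 311237 bases apart and on opposite strands. LIFR fell in both nonlactating stages after scaling, to the lowest level in LG. OSMR was highest in DP and fell in LG against both other stages.

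LIFR (gene 102168488, chromosome 20, 35849694 to 35928343), the chain that binds LIF and also serves as a receptor for OSM, was at 10.55, 12.81 and 10.67 FPKM in LL, at 14.41, 18.54 and 9.11 FPKM in DP and at 5.76, 5.78 and 7.83 FPKM in LG. As deposited, LL and DP overlapped and all 3 LG values were lower than the rest. After scaling, the values were 21.2, 23.2 and 17.6 in LL, with 9.43, 12.9 and 6.33 in DP and 4.81, 4.69 and 5.96 in LG, and no 2 stages overlapped. The log2 fold change was -1.08 ± 0.22 (SE, n = 3 per stage, limma adjusted p = 0.00275, called) between DP and LL and -1.81 ± 0.22 (limma adjusted p = 0.000179, called) between LG and LL. Between LG and DP it was -0.73 ± 0.22 (limma adjusted p = 0.0280), which is below the fold needed for a call. The fall in DP rests on the scaling: without it the log2 fold change was 0.24, and with quantile normalization it was -0.83, neither called. It also rests on replicate 3 of DP, without which it was -0.84 and not called. LG against LL kept its direction under all 3 scalings (-0.73 without scaling, not called, and -1.66 with quantile normalization, called). An uncharacterised antisense gene, LOC108638393, overlaps LIFR by 3640 bases and was at 0.17 to 0.93 FPKM. The kit does not mark strand, so reads of the shared stretch cannot be told apart.

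OSMR (gene 102184003, chromosome 20, 35473504 to 35538457), the chain that makes IL6ST responsive to OSM, was at 10.25, 6.74 and 14.11 FPKM in LL, at 26.02, 41.33 and 55.03 FPKM in DP and at 3.08, 4.10 and 6.53 FPKM in LG. As deposited the 3 stages did not overlap, although the highest LG value was close to the lowest LL value. After scaling the LL values were 20.6, 12.2 and 23.3, and the DP values of 17.0, 28.7 and 38.2 overlapped them. The scaled LG values of 2.57, 3.32 and 4.97 stayed well below both. OSMR fell in LG, with a log2 fold change of -2.08 ± 0.33 against LL (SE, limma adjusted p = 0.000772) and of -2.61 ± 0.33 against DP (limma adjusted p = 0.000387), and both calls held without scaling (-1.02 and -2.89) and with quantile normalization (-1.91 and -2.81). Between DP and LL the log2 fold change was 0.53 ± 0.33 (limma adjusted p = 0.184, not called). That difference was called without scaling (1.87, limma adjusted p = 0.000373) and not with quantile normalization (0.89). Set against the median of all genes in the unscaled fit, OSMR in DP stood 0.78 higher on the log2 scale.

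**Figure D2:**
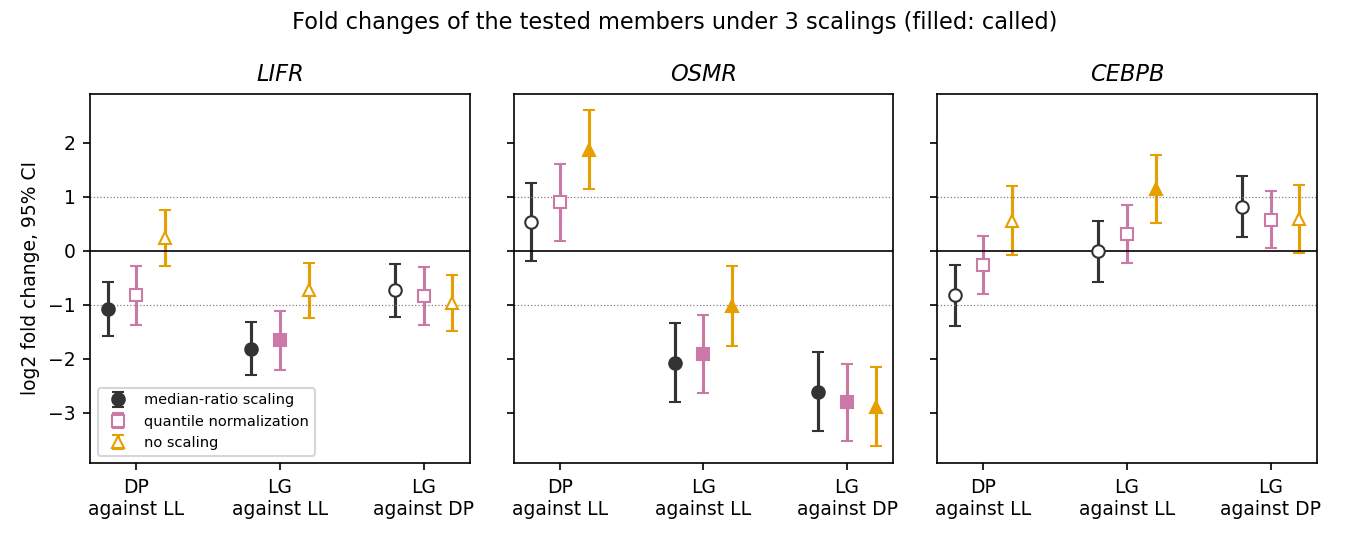
Log2 fold changes of LIFR, OSMR and CEBPB (vertical axis) for the 3 comparisons of stages (horizontal axis) under median-ratio scaling (circles), quantile normalization (squares) and no scaling (triangles). Filled symbols are called, vertical bars are 95% confidence intervals from limma, and dotted lines mark a log2 fold change of 1 in size. OSMR in LG against DP lies between -2.61 and -2.89 under all 3, whereas LIFR in DP against LL moves from -1.08 to 0.24.

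Of the 3 members tested, LIFR was called between DP and LL, LIFR and OSMR between LG and LL, and OSMR between LG and DP, beside 22.6%, 17.3% and 13.3% of all genes. As all these calls were of lower values, the closer backgrounds are the 8.79%, 6.61% and 6.88% of genes called lower. Counts of 1 or 2 in 3 genes are too small to set against these shares. Without scaling the called members were OSMR between DP and LL, OSMR and CEBPB between LG and LL, and OSMR between LG and DP, beside 56.8%, 47.9% and 15.6% of all genes. With quantile normalization none was called between DP and LL (LIFR and OSMR passed on adjusted p and missed the fold), LIFR and OSMR were called between LG and LL, and OSMR between LG and DP, beside 19.5%, 14.7% and 12.5% of all genes. Stages without overlap were common in themselves. For DP and LL this held for 87.9% of the tested genes as deposited and 65.9% after scaling, for LG and LL for 80.0% and 61.1%, and for LG and DP for 49.8% and 47.9%.

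A ratio of 2 genes within a library needs no scaling between libraries. OSMR over LIFR was 0.972, 0.526 and 1.32 in LL, with 1.81, 2.23 and 6.04 in DP and 0.535, 0.709 and 0.834 in LG. In each DP library OSMR exceeded LIFR, and in each LG library LIFR exceeded OSMR. On the log2 scale the ratio was 1.71 higher in DP than in LL (2-sided exact permutation p = 0.1, stages without overlap) and -2.07 in LG against DP (exact permutation p = 0.1, no overlap). LG and LL overlapped, with a difference of -0.36 (exact permutation p = 0.5). With 3 libraries against 3, 0.1 is the smallest p this test can give, so none of these ratios can pass 0.05.

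IL6ST, the signalling chain that LIFR and OSMR share, gave the other side of the receptor complex. It was at 12.81, 15.70 and 20.28 FPKM in LL, at 56.29, 72.78 and 63.90 FPKM in DP and at 15.06, 14.03 and 23.21 FPKM in LG, so DP stood apart and LL and LG overlapped. IL6ST fell between DP and LG (log2 fold change -1.61 ± 0.20, limma adjusted p = 0.000348), also without scaling (-1.85) and with quantile normalization (-1.96). Between DP and LL its log2 fold change was 0.57 (limma adjusted p = 0.0314, not called), against 1.93 without scaling and 1.09 with quantile normalization, both called. Between LG and LL it fell by 1.04 on the log2 scale after scaling, a difference that was 0.08 in the other direction without scaling and -0.87 with quantile normalization, neither called.

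LIFR over IL6ST was 0.824, 0.816 and 0.526 in LL, with 0.256, 0.255 and 0.143 in DP and 0.382, 0.412 and 0.337 in LG. The 3 stages did not overlap, with DP lowest, LG between and LL highest. The log2 difference was -1.74 between DP and LL, -0.90 between LG and LL and 0.84 between LG and DP (exact permutation p = 0.1 for each). OSMR over IL6ST was 0.800, 0.429 and 0.696 in LL, with 0.462, 0.568 and 0.861 in DP and 0.205, 0.292 and 0.281 in LG. DP and LL overlapped here, with a log2 difference of -0.03 (exact permutation p = 1.0), and LG lay below both (-1.26 against LL and -1.23 against DP, exact permutation p = 0.1 for each). Among these 3 receptor genes the DP libraries thus held little LIFR per IL6ST, and the LG libraries held little OSMR per IL6ST. The ratios to IL6ST were chosen after the values had been seen and are descriptions.

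**Figure D3:**
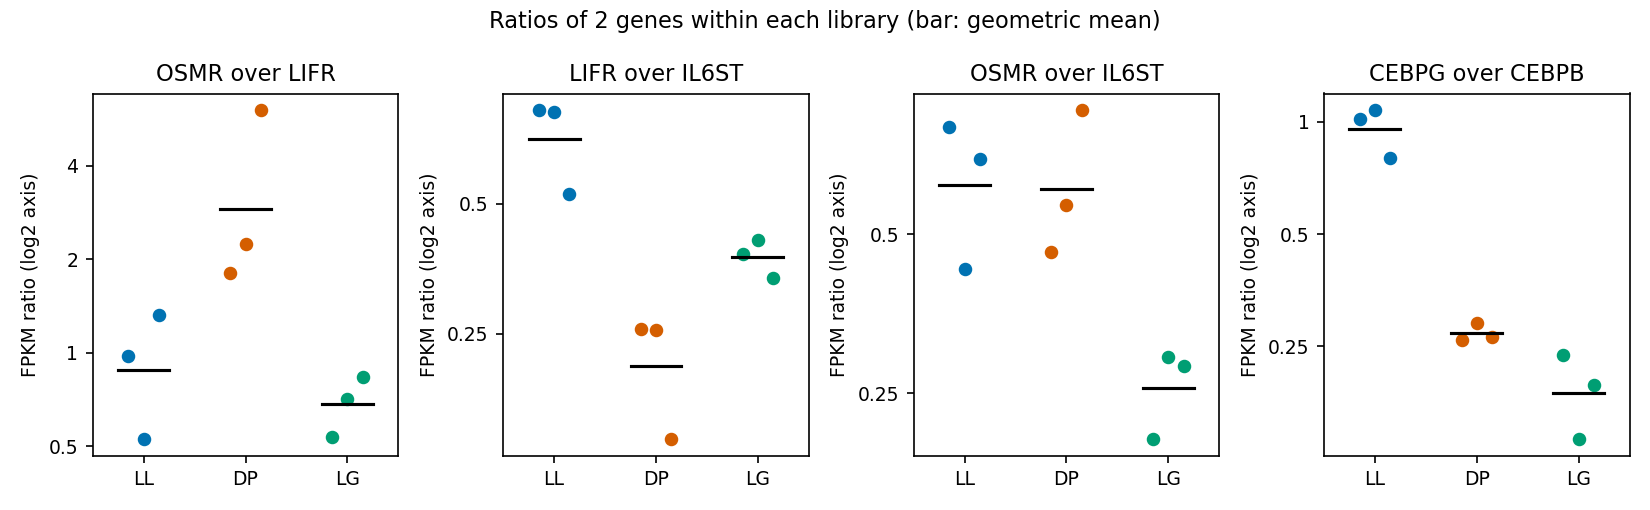
FPKM ratios of pairs of genes within each library (vertical axes, log2 scale) in LL, DP and LG; points are libraries and bars the geometric mean of a stage. OSMR over LIFR is 1.81 to 6.04 in DP and at most 1.32 elsewhere, and LIFR over IL6ST is lowest in DP, between 0.143 and 0.256. CEBPG over CEBPB is 0.796 to 1.07 in LL and at most 0.288 in DP and LG.

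In whole tissue, fewer cells of a type and less RNA per cell cannot be told apart, and the stages differed in their cell type markers. None of the 13 leukocyte markers in the table was at 0 in every library. They summed to 57.7 to 68.6 FPKM in LL, 201 to 320 FPKM in DP and 118 to 124 FPKM in LG. Of the 11 tested, 5 rose between LL and DP (13.8% of all genes rose). Between DP and LG 6 of the 11 fell and 1 rose (6.88% of all genes fell and 6.37% rose). After scaling, the leukocyte sums were 109 to 116 for LL, 140 to 209 for DP and 94.1 to 98.6 for LG. Fibroblast markers (7 of 7 in the table) summed to 109 to 201 FPKM in LL, 791 to 3476 FPKM in DP and 632 to 1187 FPKM in LG. Of these 7, 6 rose in DP against LL (13.8% of all genes rose). The 6 luminal epithelial markers summed to 496 to 612 FPKM in LL, 410 to 753 FPKM in DP and 904 to 1170 FPKM in LG. After scaling they summed to 819 to 1106, 269 to 522 and 733 to 891, so the stage with the lowest sum was then DP. ELF5 made up much of the LL and LG sums and averaged 325, 46.9 and 566 FPKM in LL, DP and LG. The other luminal markers each averaged higher in DP than in LL as deposited. Of the 6, 1 fell between LL and DP (8.79% of all genes fell) and none rose. Without scaling 3 were called higher and 1 lower there, beside 54.3% and 2.51% of all genes. Endothelial markers (4 of 4) summed to 49.0 to 72.9, 153 to 218 and 65.9 to 102 FPKM in LL, DP and LG, adipocyte markers (3 of 4) to 0.13 to 0.38, 1.25 to 26.0 and 0.44 to 0.61 FPKM, and myoepithelial markers (5 of 5) to 89.6 to 140, 206 to 652 and 263 to 394 FPKM. After scaling, the fibroblast sums were 218 to 332, 518 to 2415 and 527 to 962 for LL, DP and LG, and the endothelial sums were 90.1 to 120, 106 to 152 and 55.0 to 77.8. OSMR and IL6ST as deposited were highest in DP, as were the leukocyte and endothelial sums, and the fibroblast and adipocyte sums were higher there than in LL. After scaling, OSMR and the endothelial sums in DP overlapped those in LL, and the leukocyte sums did not. As deposited the leukocyte and fibroblast sums were higher in LG than in LL, and OSMR was lower. After scaling, the leukocyte sums were lower in LG (94.1 to 98.6) than in LL (109 to 116), as was OSMR. The scaled fibroblast sums stayed higher in LG than in LL. The part of these cells in the receptor values was not tested.

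CEBPB (gene 108637430, chromosome 13, 77740304 to 77742226), a transcription factor of the acute phase response that alveolar development also needs, was the most abundant member. It was at 21.67, 29.11 and 40.74 FPKM in LL, at 43.12, 34.30 and 57.18 FPKM in DP and at 48.58, 82.38 and 73.21 FPKM in LG. As deposited DP overlapped both neighbours, and LL and LG did not overlap. After scaling the values were 43.5, 52.6 and 67.3 in LL, with 28.2, 23.8 and 39.7 in DP and 40.6, 66.8 and 55.7 in LG, so DP became the lowest stage and LL and LG overlapped. No comparison was called: the log2 fold change was -0.82 ± 0.25 between DP and LL (SE, limma adjusted p = 0.0199), -0.01 ± 0.25 between LG and LL (adjusted p = 0.978) and 0.81 ± 0.25 between LG and DP (adjusted p = 0.0326). The scaling decides this picture. Without it the log2 fold changes were 0.56 between DP and LL and 1.14 between LG and LL, the latter called (limma adjusted p = 0.00407), and with quantile normalization they were -0.26 and 0.31. LG against DP was positive under all 3 scalings, at 0.59 without scaling and 0.58 with quantile normalization, and without replicate 3 of DP (1.01) or replicate 1 of LG (1.01) it was called. Without replicate 3 of DP, the difference between DP and LL was called too (-1.02).

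CEBPD (gene 108637532, chromosome 14, 62920428 to 62922029), the factor that follows STAT3 most closely in mouse involution, was listed at 0 in all 9 libraries, as were 3078 genes of the table. The nearest gene, SPIDR, a DNA repair scaffold on the other strand, ends 558 bases from it. SPIDR was at 9.28, 12.32 and 18.46 FPKM in LL, at 66.79, 61.83 and 84.68 FPKM in DP and at 17.39, 22.44 and 20.93 FPKM in LG. Whether reads of CEBPD were counted elsewhere was not tested, and a value of 0 in a table without counts can be a failed estimate. CEBPD therefore carries no information on the stages here.

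Of other C/EBP-named genes and the bZIP factors that pair with C/EBP proteins, CEBPG, ATF4, DDIT3 and NFIL3 fell in 1 or more comparisons. CEBPA (log2 fold changes 0.12 in DP and 0.80 in LG against LL) and CEBPZ (0.32 and 0.64) were not called after scaling. Of 6 tested, 3 fell between LL and DP (8.79% of all genes did) and 4 fell between LL and LG (6.61% of all genes). Between DP and LG 1 fell (6.88% of all genes), and none was called higher in any comparison. Without scaling 2 (CEBPA and CEBPZ) were called higher and 1 lower in DP against LL, and likewise in LG against LL. The shares of all genes were then 54.3% higher and 2.51% lower in DP, and 45.6% and 2.35% in LG. After scaling the 6 had median log2 fold changes of -1.02, -1.80 and 0.12, where the medians of all genes were below 0.02 in size. CEBPG, a partner without an activation domain of its own, was at 22.05, 31.26 and 32.44 FPKM in LL, at 11.24, 9.89 and 15.11 FPKM in DP and at 11.54, 11.63 and 14.43 FPKM in LG. LL lay above both other stages, and the log2 fold change was -2.52 ± 0.17 in DP (SE, limma adjusted p = 5.81e-06) and -2.25 ± 0.17 in LG against LL (adjusted p = 1.42e-05). Both calls held without scaling (-1.18 and -1.12). CEBPG over CEBPB was 1.02, 1.07 and 0.796 in LL, with 0.261, 0.288 and 0.264 in DP and 0.238, 0.141 and 0.197 in LG, so the 2 genes stood nearly level in LL and CEBPB was several times higher elsewhere (log2 differences -1.81 and -2.34 against LL, exact permutation p = 0.1 for each). This ratio too was chosen after its values had been seen.

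ATF4, the main factor of the amino acid and unfolded protein stress response, had log2 fold changes of -1.84 in DP and -1.87 in LG against LL, both called as falls. Its target DDIT3 fell too, with log2 fold changes of -1.23 and -1.72. NFIL3, a bZIP repressor, fell by 2.04 in LG against LL and by 1.23 against DP on the log2 scale. Without scaling these ATF4 and DDIT3 changes and that of NFIL3 against LL kept their sign and lost their calls, with DDIT3 at -0.06 in DP against LL.

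The ligands and receptors related to LIF and OSM included 14 genes in the table, of which 10 were tested. Between DP and LL 2 rose and none fell (13.8% of all genes rose), between LG and LL 1 rose and 2 fell (10.7% of all genes rose and 6.61% fell), and between LG and DP 4 fell and none rose (6.88% of all genes fell). Without scaling 7 were called higher and none lower in DP against LL, where 54.3% of all genes were called higher and 2.51% lower. In LG against LL 3 were then called higher and none lower, beside 45.6% and 2.35% of all genes. The medians of the 10 log2 fold changes were 0.39, -0.46 and -0.56. IL6, the founder of the family and an inflammatory cytokine, was at 0.18, 0.28 and 0.25 FPKM in LL, at 10.98, 2.11 and 8.53 FPKM in DP and at 0.20, 0.27 and 0.38 FPKM in LG. Every DP library exceeded every other library by several times, and LL and LG overlapped. IL6 rose in DP against LL (log2 fold change 1.86 ± 0.37, SE, limma adjusted p = 0.00222) and fell in LG against DP (-2.08 ± 0.37, limma adjusted p = 0.00226), with both calls held under the other scalings. Within the DP libraries IL6 was thus listed above both LIF and OSM.

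CTF1, cardiotrophin, which signals through LIFR and IL6ST, was at 0.18 to 0.45 FPKM in LL, 2.32 to 4.65 FPKM in DP and 2.33 to 4.28 FPKM in LG. It rose in both (log2 fold changes 1.18 and 1.24 against LL), with smaller differences under quantile normalization (0.64 and 0.89, not called). CNTFR, the binding chain for ciliary neurotrophic factor, fell in LG against LL (-1.59, and -0.91 without scaling, not called) and against DP (-1.01, and -0.82 with quantile normalization, not called). The row of IL27RA, a receptor chain that pairs with IL6ST, had a called log2 fold change of -1.12 in LG against DP. The values of IL27RA, JAK1 and JAK2 each followed those of a neighbouring gene along a straight line within 1% of their range, so they are not separate measurements of these genes, and the counts include them.

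Of the 14 signalling and feedback genes tested, 2 rose and 1 fell between LL and DP (13.8% of all genes rose and 8.79% fell), 2 rose and 2 fell between LL and LG (10.7% and 6.61% of all genes), and 1 rose and 2 fell between DP and LG (6.37% and 6.88%). Without scaling 11 were called higher and none lower in DP against LL, where 54.3% of all genes were called higher and 2.51% lower. In LG against LL 8 were then called higher and none lower, beside 45.6% and 2.35% of all genes. SOCS3, the inhibitor that binds IL6ST and the JAK kinases, was at 1.62, 2.76 and 2.89 FPKM in LL, at 19.02, 13.79 and 45.05 FPKM in DP and at 1.17, 2.72 and 1.58 FPKM in LG. The 3 DP values were the highest, and LL and LG overlapped. SOCS3 rose in DP against LL (log2 fold change 1.65 ± 0.37, SE, limma adjusted p = 0.00443) and fell in LG against DP (-2.79 ± 0.37, limma adjusted p = 0.000538), under all 3 scalings. Its fall in LG against LL (-1.13, limma adjusted p = 0.0287) was -0.29 without scaling and then not called.

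STAT3, the transcription factor of the pathway, was at 20.72, 23.38 and 32.03 FPKM in LL, at 64.59, 64.81 and 73.31 FPKM in DP and at 28.73, 35.75 and 67.65 FPKM in LG. No comparison of STAT3 was called after scaling (log2 fold changes 0.02, -0.45 and -0.46), and without scaling it was called higher in DP than in LL (1.40) and stood at 0.70 in LG against LL. RNA levels say nothing of the phosphorylation that activates the protein. SOCS1, an inhibitor of JAK kinases, rose in DP against LL (1.23), from 0.07 to 0.08 FPKM in LL to 2.33 to 2.67 FPKM in DP. PIAS3, a STAT3 inhibitor, rose in LG against LL (1.10) and DP (1.05). Its values followed those of the neighbouring gene ANKRD35 along a straight line within 2.19% of their range, just outside the 1% limit used above. Whether PIAS3 is a separate measurement was not tested. The rows of JAK1 and JAK2 follow neighbouring genes, and which row the reads belong to was not tested. They are therefore not read here as results for these genes. The rises of SOCS1 in DP and of PIAS3 in LG against LL were called under all 3 scalings, and PIAS3 in LG against DP was not called without scaling (0.90).

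**Figure D4:**
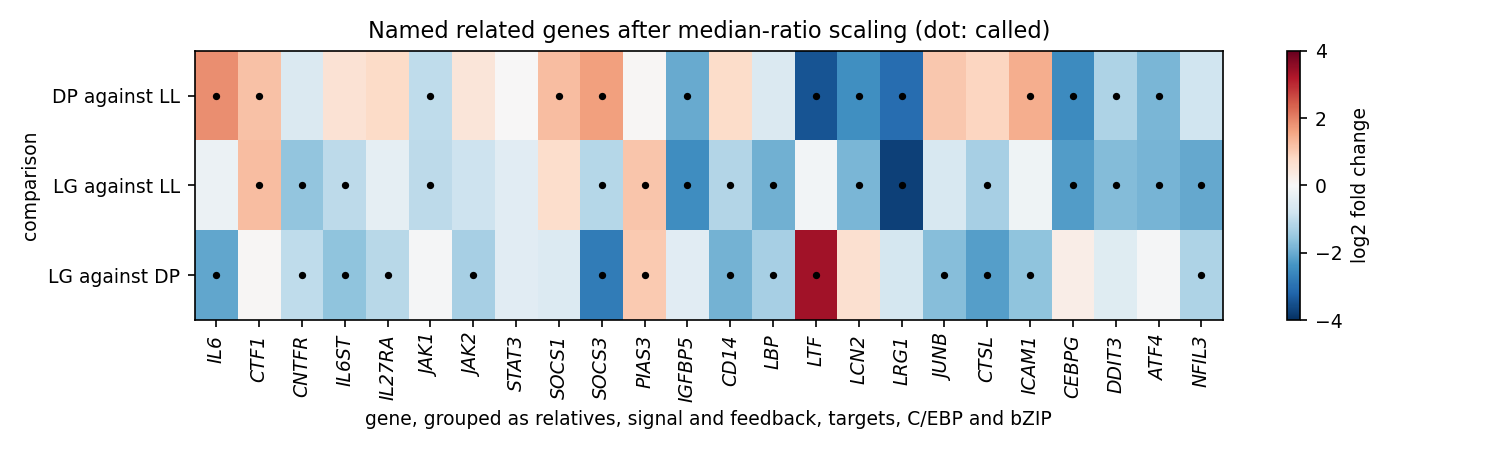
Log2 fold changes after median-ratio scaling (colour, red for higher and blue for lower in the first stage named) of the named related genes other than CEBPA and CEBPZ (columns) in the 3 comparisons of stages (rows). A dot marks a called gene. The columns of IL27RA, JAK1 and JAK2 follow neighbouring genes and are not separate measurements. IL6 and SOCS3 are called higher in DP against LL and lower in LG against DP, and LTF is called in the opposite direction in both.

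Products of mammary involution or the acute phase response were represented by 17 tested genes. Between LL and DP 1 rose and 4 fell, beside 13.8% and 8.79% of all genes, and their median log2 fold change was 0.15. Between LL and LG none rose and 6 fell (median -0.65), where 10.7% of all genes rose and 6.61% fell. Between DP and LG 1 rose and 5 fell (median -0.59), where 6.37% of all genes rose and 6.88% fell. Without scaling 11 were called higher and 3 lower in DP against LL, where 54.3% of all genes were called higher and 2.51% lower. In LG against LL 5 were then called higher and 3 lower, beside 45.6% and 2.35% of all genes. The split between LL and the other stages thus depended on the scaling.

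IGFBP5 was at 33.89, 39.52 and 33.57 FPKM in LL, at 17.75, 25.12 and 24.41 FPKM in DP and at 12.19, 19.69 and 10.04 FPKM in LG. LL was highest without overlap, and IGFBP5 fell in DP (log2 fold change -2.03 ± 0.25, SE, limma adjusted p = 0.000151) and in LG against LL (-2.48 ± 0.25, adjusted p = 6.65e-05). Without scaling the first was -0.66 and not called. LTF, lactoferrin, an iron-binding antibacterial milk protein, was at 786, 553 and 1264 FPKM in LL, at 248, 120 and 258 FPKM in DP and at 1870, 1644 and 1661 FPKM in LG. LTF fell in DP against LL (-3.46 ± 0.33, limma adjusted p = 3.32e-05) and rose in LG against DP (3.35 ± 0.33, adjusted p = 0.000144), under all 3 scalings.

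LRG1, an acute phase glycoprotein, fell in DP (-3.04) and LG (-3.73) against LL, from 4.63 to 13.0 FPKM in LL to 0.90 to 2.01 FPKM in DP and 0.18 to 0.31 FPKM in LG. LCN2, the siderophore-binding lipocalin, fell in the same comparisons (-2.46 and -1.82). CD14 and LBP, which together present bacterial lipopolysaccharide, fell in LG against LL (-1.18 and -1.92) and against DP (-1.90 and -1.34), and in DP against LL they were at 0.72 and -0.57 and not called. CTSL, a lysosomal protease, fell in LG against LL (-1.33) and DP (-2.19). JUNB, an immediate early factor, fell in LG against DP (-1.71). Without scaling the differences between LG and LL were -0.84 for LCN2, -0.19 for CD14 and -0.73 for CTSL, none of them called.

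ICAM1, an adhesion molecule for leukocytes, rose in DP against LL (1.46 ± 0.14, SE, limma adjusted p = 4e-05) and fell in LG against DP (-1.62 ± 0.14, adjusted p = 8.9e-05). Its values were 1.97 to 2.61 FPKM in LL, 17.0 to 21.1 FPKM in DP and 3.45 to 5.20 FPKM in LG, and the DP values lay above the rest. IL6, SOCS3 and ICAM1 as deposited were highest in DP. The leukocyte (201 to 320 FPKM), endothelial (153 to 218 FPKM) and adipocyte markers (1.25 to 26.0 FPKM) were above both other stages there. The fibroblast markers (791 to 3476 FPKM) were above LL. After scaling the endothelial sums of DP and LL overlapped. The part of these cells in the 3 genes was not tested. Over the 4 lists, 13 of 47 genes were called between DP and LL, 17 between LG and LL and 14 between LG and DP after scaling, beside 22.6%, 17.3% and 13.3% of all genes. Without scaling the split between DP and LL turned from 5 higher and 8 lower to 31 higher and 4 lower, where 54.3% of all genes were called higher and 2.51% lower. That between LG and LL turned from 3 and 14 to 18 and 4 (45.6% and 2.35% of all genes), and that between LG and DP from 2 and 12 to 1 and 13 (4.86% and 10.7% of all genes).

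Over the 9 libraries, the tested gene most like OSMR on the scaled log2 scale was ITGAV, an integrin chain (Pearson r = 0.989), followed by the galectin gene LGALS3 (0.981) and ENPP1 (0.972). LGALS3 averaged 18.7, 140 and 5.03 FPKM in LL, DP and LG. Most like LIFR were CCDC39 (0.974), TMCC3 (0.972) and JCHAIN, the joining chain of secreted immunoglobulins (0.966), which averaged 267, 137 and 20.1 FPKM. Most like CEBPB were DNAJB1 (0.954), BTG2 (0.944) and ASTN2 (0.919). Between the members themselves r was 0.58 for LIFR with OSMR, -0.03 for LIFR with CEBPB and -0.41 for OSMR with CEBPB. These correlations are descriptions: each rests on 3 stages of 3 libraries that share their scaling, and genes picked as the highest of 14701 will be close by selection.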

How the data were processed

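RNA-seq values of mammary tissue from 9 goats were analysed, 3 per stage, grouped by the stage in the labels. The authors deposited 1 table of FPKM per gene. Its unit is not named and was read from the study's methods and from the values, which carry decimals and sum to different totals. Per the labels and methods, RNA was extracted with TRIzol, libraries were made with a TruSeq RNA v2 kit, and reads were checked with FastQC, trimmed with Trimmomatic, aligned with HISAT2 and sorted with SAMtools. The methods name StringTie and the labels HTSeq for quantification. Depth cannot be read from FPKM, so the number of goats and their spread set the precision, and no count test was run.

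FPKM were divided by median-ratio factors from the 15905 genes above 0 in every library. After a pseudocount of 1 and log2, limma 3.58.1 (R 4.3.3) was fitted to all 9 libraries together, with a mean-variance trend. It covered 14701 genes, those reaching 0.5 FPKM in 3 libraries or more, with Benjamini-Hochberg adjustment over all genes. Unscaled values and quantile normalization were run beside it, as were a pseudocount of 0.1, no filter, a filter of 2 FPKM, fits of 2 stages, no trend, a replicate block and each library left out. Ratios were tested with 2-sided exact permutation tests (scipy 1.17.1, pseudocount 0.1 in the log). On simulated data for DP against LL with 14555 genes, 185 of 200 changed genes were called, with 4 false calls. The changed genes were moved by 2 on the log2 scale and picked among genes with a mean above 2 on that scale. No shift between libraries was simulated. Recovery of changes near the fold needed for a call was not tested. The share of missed or false calls in the deposited values was not tested.

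The genes and lists were chosen with earlier results of these data known. Named genes are all members, every listed related gene called in at least 1 comparison, IL6ST, STAT3, SOCS3, CEBPA and CEBPZ. The 3 genes most like each tested member are named too. A called related gene is not reported here, and the counts of calls include it. IL31, STAT5A, SERPINA3, HP, SAA3, CD163 and FABP4 were not analysed here. Of the table's gene identifiers, 23465 of 23499 matched RefSeq ARS1.2, used only for neighbours and symbols. Sequences were not used here.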

Additional observations from a re-analysis of the deposited data

How the results depend on the processing

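The scaling between libraries mattered most. Without it, 8348 genes were called between DP and LL and 7043 between LG and LL, in place of 3321 and 2544, and 35 related genes in place of 13 between DP and LL. The log2 fold change then turned from -1.08 to 0.24 for LIFR in DP against LL, from -0.82 to 0.56 for CEBPB in DP against LL, and from -0.01 to 1.14 for CEBPB in LG against LL. The last was also 0.31 with quantile normalization, 0.0081 in a fit of the 2 stages alone and -0.17 to 0.18 with libraries left out in turn. A pseudocount of 0.1 called 3912 genes between LG and LL. With quantile normalization 0 members were called by limma between DP and LL (LIFR -0.83, unadjusted p = 0.00697; OSMR 0.89, unadjusted p = 0.0197, both short of the fold). Leaving out libraries gave 1 to 2 members called between LG and DP, and a log2 difference of OSMR over IL6ST of -0.29 to 0.17 between DP and LL. Of the other alternative values, 139 member fold changes kept their direction and their side of the threshold, and 80 ratios kept their direction. Of the counts, 101 stayed within 1.5 times the main count, though the members counted could differ. Between DP and LL the 1 called was OSMR without scaling and CEBPB without DP replicate 3. CEBPB over CEBPD had no value.

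Each library came from a different goat. The 9 pairs of libraries with the same replicate number had correlations of deviations from -0.106 to 0.201, 3 of them over 0.1. The 18 pairs with different numbers had correlations from -0.223 to 0.0722, none of them over 0.1. Whether libraries of the same number share a batch was not tested. A replicate block left the counts of calls at 3340, 2564 and 1986, LIFR in DP against LL at -1.08, and no member's call altered.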
